A study of Mus musculus with 6 samples.

Results

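The imprinted growth network is a set of genes that are expressed mainly from 1 parental copy and that act together on growth before and after birth. The 10 genes described here are H19, Igf2, Igf2r, Dlk1, Meg3, Cdkn1c, Plagl1, Mest, Peg3 and Grb10. They were taken as a list by symbol out of the 35275 genes of the series, and all 10 were found. The list was drawn up with earlier results of these data known, so its tests and counts are not free of that knowledge. H19 was chosen by its measured level, selected on its normalised reads being higher in NG than in IG, so its values in the contrasts with NG are given as a description, with no test. All 10 had a mean of at least 10 normalised reads over the 6 libraries.

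In genomic imprinting, methylation laid down in the egg or the sperm marks one parental copy of a control region, and the copy to be expressed is set by that mark. In general, paternally expressed genes of the network, such as the growth factor gene Igf2, favour growth, and maternally expressed ones, such as the cell cycle inhibitor gene Cdkn1c, restrain it. Most of the network is known for high expression in the fetus and a fall after birth, while several members, such as Peg3 and Meg3, stay high in neurons. Parental alleles were not measured here, so every value is the sum over both copies.

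The samples were RNA-seq libraries labelled as cultured spinal cord neurons taken at postnatal day 3 from ICR mice, which are outbred. TG was labelled as mechanically injured and kept with 75% hydrogen, a gas under study as an antioxidant. NG was labelled as mechanically injured, and IG as the control with no treatment. Each group had 2 libraries, called A for the deeper and B for the shallower one. Strain, age, tissue and DMEM culture medium were common to all 3 groups. Whether both libraries of a group stem from different cultures or animals is not said in the labels. A p-value here measures only how far these libraries differ, and that spread may be technical.

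Libraries held 15749447 to 23911141 reads assigned to genes. Atf3, a transcription factor gene induced in injured neurons, had 1147 and 1127 normalised reads in TG libraries, 117 and 91.6 in NG libraries, and 1082 and 1049 in IG libraries. It was therefore low in the library pair labelled injured alone, which goes against that label, and each direction below is that of the libraries as labelled. All 8 neuron markers were detected in every group, and so were markers of other tissues. Their summed level was 79254 and 77695 normalised reads in TG, 40533 and 39050 in NG, and 67554 and 66790 in IG. Oligodendrocyte markers summed to more, at 2099865 and 2111000 in TG, 1062686 and 1110679 in NG, and 1668127 and 1732888 in IG. Fat markers stood apart in NG, at 23233 and 20888, against 693 and 702 in TG and 1078 and 1052 in IG. Liver markers stood apart in IG, at 17375 and 16405, against 35.4 and 30.8 in TG and 66.1 and 65.1 in NG. Of the 6 on that list 5 were called lower in NG and in TG than in IG. The 1 that did not pass, Afp, had 3.87 and 1.16 in IG, 6.80 and 2.41 in NG, and 2.41 and 3.42 in TG. Mitochondrially encoded genes took 17.2% and 14.2% of reads in NG, 5.64% and 5.08% in TG, and 5.39% and 4.66% in IG.

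Among the members, 4 host microRNAs whose mature sequences are given here. The precursor of miR-675 lies in an exon of H19, and that of miR-770 in an exon of Meg3. Those of miR-483 and miR-335 were not found to share exon bases with Igf2 or Mest. Mir1906-1, which shares 80 exon bases with Meg3, is not shown. Mature microRNAs were not measured in these libraries. The sequences are RefSeq entries on GRCm38.p6, written 5′ to 3′ with the seed, bases 2 to 8, in capitals. No seed was shared among the 8.
miR-675-5p (H19, chr7:142577112-142577133, minus strand): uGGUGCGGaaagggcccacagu
miR-675-3p (H19, chr7:142577078-142577099, minus strand): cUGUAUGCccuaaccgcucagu
miR-483-5p (Igf2, chr7:142654968-142654989, minus strand): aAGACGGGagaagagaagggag
miR-483-3p (Igf2, chr7:142654932-142654952, minus strand): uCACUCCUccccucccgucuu
miR-335-5p (Mest, chr6:30741314-30741336, plus strand): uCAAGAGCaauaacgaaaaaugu
miR-335-3p (Mest, chr6:30741354-30741375, plus strand): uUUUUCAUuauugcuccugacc
miR-770-5p (Meg3, chr12:109563710-109563731, plus strand): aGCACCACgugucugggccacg
miR-770-3p (Meg3, chr12:109563744-109563765, plus strand): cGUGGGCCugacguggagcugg

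Promoter sequences, from 250 bases before to 50 bases after a start, were held by the RefSeq table for 8 members, with 15 promoters in all, and H19 and Cdkn1c had no entry. Peg3 and Meg3 are shown because both were higher in TG than in either other group. Their calls in TG against IG depended on single libraries, as given below, and any link between promoter sequence and these levels was not tested. Both also hold the letters TGACGTCA, the palindromic cAMP response element, on which both strands read alike. These letters were found in 1.79% of 32851 mouse promoters of the same length and in 2 of the 15 member promoters. In the sequences below they are in capitals, and they start 178 bases before the start in Peg3 and 57 bases before it in Meg3. Each promoter held 13 CpG dinucleotides, against a median of 7 over all promoters, and the GC content was 61.3% for Peg3 and 53.7% for Meg3, against a median of 52.7%.
Peg3 (GRCm38.p6, chr7:6730370-6730669, minus strand): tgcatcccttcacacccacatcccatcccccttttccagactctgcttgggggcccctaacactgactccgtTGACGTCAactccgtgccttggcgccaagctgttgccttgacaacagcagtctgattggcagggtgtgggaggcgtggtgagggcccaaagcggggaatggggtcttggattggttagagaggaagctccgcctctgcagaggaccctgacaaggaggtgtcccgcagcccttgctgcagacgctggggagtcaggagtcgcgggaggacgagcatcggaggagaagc
Meg3 (GRCm38.p6, chr12:109540746-109541045, plus strand): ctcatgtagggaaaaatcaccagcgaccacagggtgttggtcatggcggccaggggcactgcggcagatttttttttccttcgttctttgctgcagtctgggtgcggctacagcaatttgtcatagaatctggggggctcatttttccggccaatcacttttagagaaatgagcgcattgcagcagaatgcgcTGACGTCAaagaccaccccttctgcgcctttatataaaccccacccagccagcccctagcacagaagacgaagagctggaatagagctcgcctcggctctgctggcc
The shorter letters TGACGT, which are part of the palindrome, were found on either strand in 7.51% of all promoters and in 4 member promoters, of Grb10, Igf2r, Meg3 and Peg3. The Zac palindrome GGGGCCCC stood in 1.08% of all promoters and in that of Peg3, and its longer form in 0.0852% and in no member promoter. TATAAA stood in 13.6% and in that of Meg3. The core letters of YY1, GCCATNTT, with N for any base, and GCCATCTTG stood in 6.05% and 1.24% of all promoters, and the CTCF core motif in 0.0365%. No member promoter held any of these last 3, which says only that the letters are not in these windows.

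Across the network, NG had more Igf2 and Mest RNA and less Peg3 and Dlk1 RNA than IG, beside H19, which was selected for its rise there, and TG had more Meg3 and Peg3 and less Igf2 than either other group. In limma's test across 24511 genes with Benjamini-Hochberg adjustment at 0.05, 5 of the 9 members tested changed in NG against IG. Igf2, Mest and Grb10 rose and Dlk1 and Peg3 fell. Over all genes 40.1% were called in that comparison, 19.7% higher and 20.4% lower. In TG against NG, 6 of the 9 tested changed, with Dlk1, Meg3 and Peg3 higher and Igf2, Igf2r and Mest lower, where 45.3% of all genes were called, 22.2% higher and 23.1% lower. In TG against IG, 4 of 10 changed, with Meg3 and Peg3 higher and H19 and Igf2 lower, where 11.3% of all genes were called, 4.16% higher and 7.18% lower. H19 is counted there although its IG values also entered its choice, so its call is not free of that choice. All 4 calls there depended on single libraries, as given below. Some calls of the other comparisons did too. With 9 or 10 members, the share of members called was not tested against these backgrounds. The median log2 fold change of the 9 members tested was -0.22 in NG against IG and -0.07 in TG against NG, and that of the 10 tested in TG against IG was -0.22, where that of all genes was 0.00, 0.00 and 0.01. With the H19 values, which chose that gene, the first and second would be -0.01 and -0.20. Each comparison shares its libraries of one group with the next one, so the 3 are not independent.

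**Figure D1:**
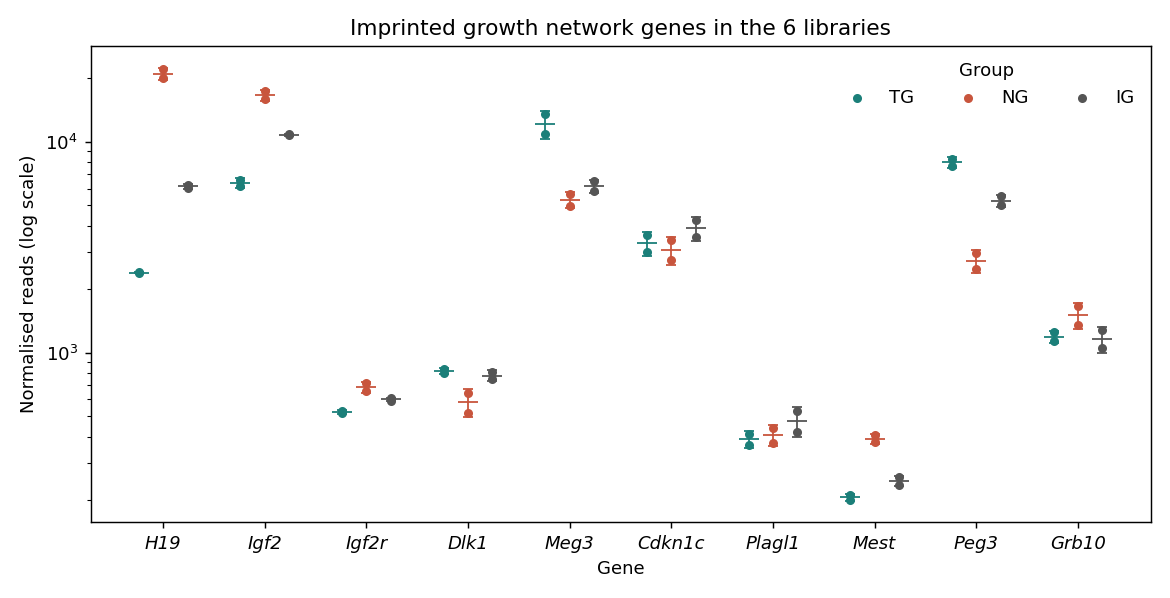
Normalised reads of the 10 genes (log scale) in the 6 libraries. Points are libraries, bars are their mean with the SD (n = 2), and the colours are TG, NG and IG, with TG on the left of each gene. H19 stood at 19971 and 22040 in NG, above the TG and IG libraries, and Peg3 at 2954 and 2490 in NG, below them.

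Levels between genes were compared as RPKM, reads scaled by exon length and by the reads assigned in the library. In TG the order was Cdkn1c at 84.3, Igf2 at 58.1, H19 at 50.6, Meg3 at 35.1, Peg3 at 31.2, Dlk1 at 7.54, Grb10 at 6.81, Igf2r at 2.93, Mest at 2.73 and Plagl1 at 2.59 RPKM. The TG libraries of Meg3, at 31.2 and 38.9 RPKM, overlapped those of Peg3, at 32.4 and 30.04, and those of Mest overlapped those of Plagl1. In NG the order was H19 at 442, Igf2 at 150, Cdkn1c at 78.0, Meg3 at 15.2, Peg3 at 10.6, Grb10 at 8.57, Dlk1 at 5.33, Mest at 5.12, Igf2r at 3.82 and Plagl1 at 2.70 RPKM, and the libraries of Dlk1 overlapped those of Mest. In IG it was H19 at 137, Cdkn1c at 105, Igf2 at 104, Peg3 at 21.6, Meg3 at 18.7, Dlk1 at 7.55, Grb10 at 7.03, Igf2r at 3.53, Mest at 3.43 and Plagl1 at 3.34 RPKM. Here Cdkn1c and Igf2 could not be ordered, nor could Dlk1 and Grb10, or Igf2r, Mest and Plagl1, whose libraries overlapped. The order depends on the length used. With the longest transcript in place of the exon union, Grb10 stood above Dlk1 in all 3 groups, Mest and Plagl1 above Igf2r in all 3, Peg3 above Meg3 in TG, Mest above Dlk1 in NG, and Igf2 above Cdkn1c in IG. H19 ranked 848th by RPKM among 34490 genes in TG, 80th in NG and 252nd in IG.

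H19 makes a long noncoding RNA from the maternal copy (chr7:142575529-142578143, minus strand, mm10) and shares its control region and enhancers with Igf2. It had 2403 and 2380 normalised reads in TG libraries, 19971 and 22040 in NG libraries, and 6039 and 6233 in IG libraries. The NG libraries were far above all others and the TG libraries the lowest, with no overlap. The log2 fold change was 1.77 (SE 0.08) in NG against IG and -3.13 (SE 0.08) in TG against NG, given without a test. In TG against IG H19 fell by 1.36 on the log2 scale (SE 0.08, limma adjusted p = 4.16e-05). That contrast shares the IG libraries with the one that chose the gene, so this p-value is not free of the choice. The call was lost when any 1 TG or IG library was left out, with adjusted p of 0.0619 to 0.0661. H19 took 0.0125% and 0.0124% of all reads in TG, 0.102% and 0.115% in NG, and 0.0332% and 0.0341% in IG.

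The 5 genes whose centred profile over the 6 libraries lay nearest to that of H19, by Euclidean distance on the log2 scale among 13719 genes, were Col1a1, Ltb4r1, Retnlg, Siglecg and Ccn5. H19 was chosen for its rise in NG, so genes near it are bound to be high in NG too. The match is given as a description only. Col1a1, the gene of a collagen of connective tissue, lay nearest at 0.170. It had 4291 and 4311 normalised reads in TG, 32078 and 37671 in NG, and 9745 and 11088 in IG. Ltb4r1, a leukotriene receptor gene of white blood cells, lay at 0.261, Retnlg at 0.263, Siglecg, a lectin gene of B cells, at 0.274, and Ccn5, a matricellular protein gene, at 0.278. Igf2, the neighbour of H19, stood at position 1166 with a distance of 1.78. Col1a1 is also one of 6 markers of fibroblasts and meninges, whose summed level was 18176 and 17774 in TG, 112106 and 113224 in NG, and 38928 and 39433 in IG. Of these 6 markers 5 rose and 1, Pdgfra, fell in NG against IG, 5 fell in TG against NG, and all 6 fell in TG against IG. Other tissue markers also stood highest in NG. The 6 skeletal muscle markers summed to 11422 and 11299 in TG, 75409 and 79941 in NG, and 8161 and 8501 in IG. Of these 5 rose in NG against IG, 5 fell in TG against NG and, unlike H19, 3 rose in TG against IG. The 4 markers of muscle progenitors summed to 15.3 and 13.7 in TG, 183 and 216 in NG, and 37.9 and 30.2 in IG, and 2 of 4 rose in NG against IG. The 5 of pericytes and smooth muscle summed to 3412 and 3243 in TG, 17000 and 16074 in NG, and 3400 and 3032 in IG, and 4 of 5 rose in NG against IG. The 5 of bone summed to 211 and 249 in TG, 1024 and 1080 in NG, and 297 and 318 in IG, and 4 of 5 rose in NG against IG. All 5 of fat rose in that comparison, and none of the markers in these lists was at 0 in a whole group. In bulk RNA, fewer cells of a type and less RNA per cell cannot be told apart, and the part of any of these cells in the H19, Igf2 and Mest values was not tested.

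**Figure D2:**
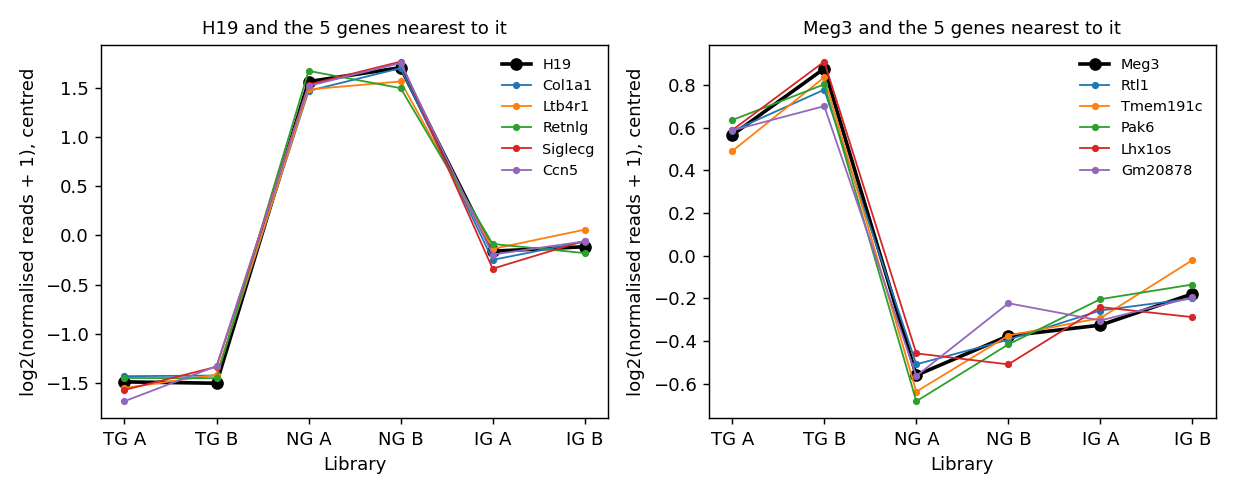
Centred log2(normalised reads + 1) in the 6 libraries for H19 and for Meg3 (black) and the 5 genes nearest to each. Lines join the values of one gene. Col1a1 lay at a distance of 0.170 from H19, and Rtl1 at 0.135 from Meg3.

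Igf2 encodes insulin-like growth factor 2, a fetal growth factor made from the paternal copy (chr7:142650766-142666816, minus strand). It had 6610 and 6158 normalised reads in TG libraries, 15877 and 17372 in NG libraries, and 10902 and 10713 in IG libraries. The 3 groups did not overlap, with NG highest and TG lowest, as for H19 but over a smaller range. Igf2 rose by 0.62 on the log2 scale in NG against IG (SE 0.08, limma adjusted p = 0.000406). It fell by 1.38 in TG against NG (SE 0.08, limma adjusted p = 3.71e-06) and by 0.76 in TG against IG (SE 0.08, limma adjusted p = 0.000755). The last call was lost when any 1 TG or IG library was left out, with adjusted p of 0.0749 to 0.0958. Some exon bases of Igf2 are shared with Igf2os on the other strand, which had 90 reads over all libraries, and 3596 with the same-strand gene model Gm49394, which was not analysed here.

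The ratio of H19 to Igf2 reads per kilobase, each within one library, was 0.846 and 0.899 in TG, 2.93 and 2.95 in NG, and 1.29 and 1.35 in IG. H19 was above Igf2 in NG and IG libraries and below it in TG libraries. This ratio does not depend on how libraries were scaled. It holds the H19 values that chose the gene for its rise in NG, so it is given as a description and nothing is read from it.

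Igf2r, the maternally expressed mouse receptor that carries IGF2 to the lysosome for breakdown, was low in all groups. It had 530 and 517 normalised reads in TG, 717 and 658 in NG, and 592 and 608 in IG. NG was highest and TG lowest with no overlap, within a narrow range. The fall in TG against NG passed the test (log2 fold change -0.39, SE 0.09, limma adjusted p = 0.00671), and it was lost without library TG B, with adjusted p of 0.0564. NG against IG (0.20, SE 0.09, limma adjusted p = 0.119) and TG against IG (-0.20, SE 0.09, limma adjusted p = 0.224) did not pass. Igf2r was called higher in NG against IG without library NG B, with a term for the deeper library and with scaling by reads outside mitochondrial genes, at adjusted p of 0.0357 to 0.0431, and over all alternatives the adjusted p reached 0.484. The ratio of Igf2 to Igf2r reads per kilobase was 20.3 and 19.4 in TG, 36.0 and 42.9 in NG, and 29.98 and 28.7 in IG. Next to Igf2r on chromosome 17, the antisense noncoding RNA gene Airn and the transporter genes Slc22a2 and Slc22a3 rose in NG against IG and fell in TG against NG. Slc22a3 had 30.6 and 20.5 normalised reads in TG, 71.9 and 97.6 in NG, and 30.2 and 29.0 in IG. It rose by 1.47 in NG against IG (SE 0.29, limma adjusted p = 0.00392), a call lost without NG B, IG A or IG B with adjusted p of up to 0.0841, and fell by 1.70 in TG against NG (SE 0.29, limma adjusted p = 0.00143).

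**Figure D3:**
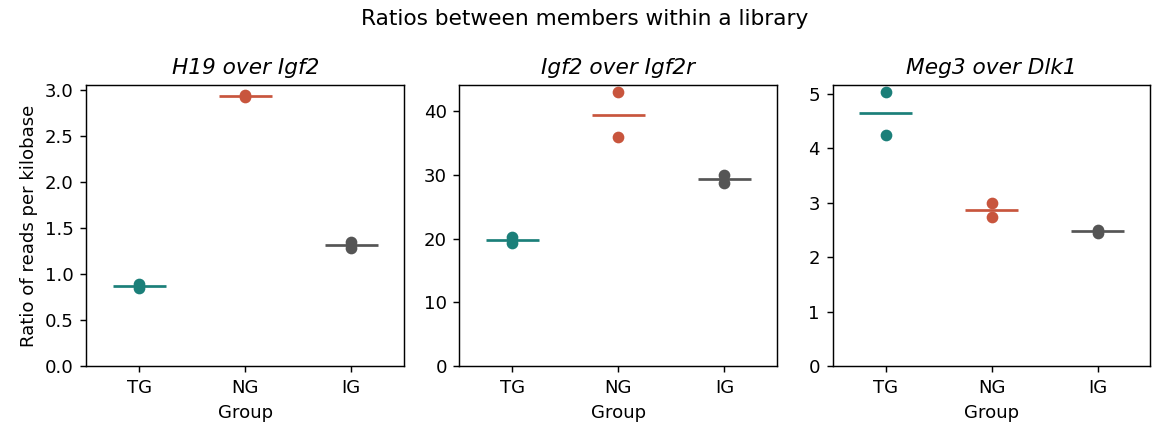
Ratios of reads per kilobase between member genes within each library, for TG, NG and IG. Each point is a library and each bar the mean of 2. H19 over Igf2 was 2.93 and 2.95 in NG, above 0.846 and 0.899 in TG and 1.29 and 1.35 in IG, and Meg3 over Dlk1 was highest in TG.

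Mest, a paternally expressed gene for a protein of the hydrolase fold, had 201 and 212 normalised reads in TG libraries, 405 and 376 in NG libraries, and 257 and 237 in IG libraries. Again NG was highest and TG lowest, without overlap. Mest rose by 0.66 in NG against IG (SE 0.11, limma adjusted p = 0.00187) and fell by 0.91 in TG against NG (SE 0.11, limma adjusted p = 0.00022), while TG against IG did not pass (-0.25, SE 0.11, limma adjusted p = 0.216). Mest shares 912 exon bases with Copg2 on the opposite strand, and since strand is not stated for the counting, reads of the pair cannot be told apart there. Copg2, a coat protein gene, moved the other way, at 1228 and 1093 in TG, 779 and 739 in NG, and 1213 and 1110 in IG.

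Grb10 encodes an adaptor that dampens insulin and IGF receptor signalling, and in the mouse it is expressed from the paternal copy in neurons and from the maternal copy in most other tissues. It had 1246 and 1132 normalised reads in TG, 1661 and 1354 in NG, and 1281 and 1049 in IG. NG libraries were above all others, and TG and IG overlapped. The rise in NG against IG was at the threshold (log2 fold change 0.37, SE 0.13, limma adjusted p = 0.0496). It was lost when any 1 of the 6 libraries was left out, and over those and the other alternatives the adjusted p ranged from 5.81e-05 to 0.421. TG against NG did not pass (-0.34, SE 0.13, limma adjusted p = 0.0639) but did in 4 alternatives, at adjusted p of 0.000134 to 0.0488, and reached 0.438 over all of them. Nor did TG against IG pass (0.03, SE 0.13, limma adjusted p = 0.929). Beside it on chromosome 11, Ddc, the gene of an enzyme of dopamine and serotonin synthesis, and Cobl, of an actin nucleator, fell in NG against IG and rose in TG against NG.

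Meg3 makes a maternally expressed long noncoding RNA (chr12:109541001-109571726, plus strand), in one cluster with Dlk1. It had 10862 and 13479 normalised reads in TG libraries, 4978 and 5658 in NG libraries, and 5859 and 6485 in IG libraries. TG libraries were well above all others, and NG lay below IG without overlap.
Meg3 rose by 1.19 on the log2 scale in TG against NG (SE 0.12, limma adjusted p = 5.83e-05) and by 0.97 in TG against IG (SE 0.12, limma adjusted p = 0.00143). NG against IG did not pass (-0.22, SE 0.12, limma adjusted p = 0.19), but was called with a term for the deeper library (limma adjusted p = 0.00089, and up to 0.637 over all alternatives). The call in TG against IG was lost when any 1 of the 6 libraries was left out, with adjusted p of up to 0.129.

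In the same cluster, Rtl1, a paternally expressed gene derived from a retrotransposon, and Rian, a maternally expressed noncoding RNA gene, rose in TG against both other groups. Rtl1 had 101 and 115 normalised reads in TG, 46.7 and 50.6 in NG, and 55.7 and 58.0 in IG, and its profile was the nearest to that of Meg3, at a distance of 0.135. It rose by 1.13 in TG against NG (SE 0.20, limma adjusted p = 0.00152) and by 0.91 in TG against IG (SE 0.20, limma adjusted p = 0.0207), the second lost without any 1 of the 6 libraries with adjusted p of up to 0.123. Rian had 7820 and 7832 in TG, 5449 and 5219 in NG, and 5451 and 5370 in IG. Mirg, the noncoding RNA gene farther along, did not pass in any comparison, at 220 and 224 in TG, 190 and 207 in NG, and 194 and 194 in IG. The other genes nearest to Meg3 were Tmem191c at 0.198, Pak6, a kinase gene, at 0.208, Lhx1os at 0.221 and Gm20878 at 0.236.

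Dlk1 encodes a membrane protein of the Notch ligand family that holds back fat cell differentiation, from the paternal copy (chr12:109452823-109463336, plus strand). It had 801 and 838 normalised reads in TG libraries, 520 and 646 in NG libraries, and 747 and 811 in IG libraries. The NG libraries were the lowest and also the farthest apart of the 3 pairs, and TG and IG overlapped. Dlk1 fell by 0.42 in NG against IG (SE 0.12, limma adjusted p = 0.0183), and was 0.50 higher in TG against NG (SE 0.12, limma adjusted p = 0.00741). TG against IG did not pass (0.07, SE 0.12, limma adjusted p = 0.748). The NG against IG call was lost without TG A, TG B, NG A, IG A or IG B, with adjusted p of 0.0907 to 0.203 over these and the fit without a trend, and that of TG against NG without TG A, TG B, IG A or IG B, with adjusted p of 0.0592 to 0.139 over these and the fit without a trend. In library NG B, where Dlk1 was higher than in NG A, the 5 adrenal cortex markers summed to 1379, against 75.8 in NG A, 59.5 and 77.6 in TG and 75.9 and 65.0 in IG. In NG B, Cyp11a1 stood at 792, Star at 333 and Hsd3b1 at 252, while Cyp11b1 and Cyp17a1 stood at 1.205 each. Cyp11b1 was highest in TG B, at 10.3, and Cyp17a1 was at 0 in both TG libraries. Dlk1 was higher in the shallower library of TG and of IG too, where the 5 markers summed to 77.6 and 65.0. The part of RNA from cells with these markers in the Dlk1 values was not tested.

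The ratio of Meg3 to Dlk1 reads per kilobase was 4.24 and 5.03 in TG, 2.99 and 2.74 in NG, and 2.45 and 2.501 in IG. At the far end of the cluster Dio3, the gene of a deiodinase that inactivates thyroid hormone, had 19.3 and 21.7 normalised reads in TG, 4.86 and 6.03 in NG, and 23.2 and 31.3 in IG. It fell by 2.12 in NG against IG (SE 0.36, limma adjusted p = 0.00166) and rose by 1.74 in TG against NG (SE 0.36, limma adjusted p = 0.00395).

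Peg3 encodes a zinc finger DNA-binding protein from the paternal copy (chr7:6703892-6730431, minus strand) and is known for expression in brain. It had 8311 and 7667 normalised reads in TG libraries, 2954 and 2490 in NG libraries, and 5501 and 5010 in IG libraries. The 3 groups did not overlap, and their order, TG above IG above NG, was the reverse of that of H19, Igf2 and Mest.
Peg3 fell by 0.95 on the log2 scale in NG against IG (SE 0.10, limma adjusted p = 0.000124), rose by 1.56 in TG against NG (SE 0.10, limma adjusted p = 5.65e-06), and rose by 0.60 in TG against IG (SE 0.10, limma adjusted p = 0.0065). The last of these was lost when any 1 of the 6 libraries was left out, with adjusted p of up to 0.198. Usp29, a paternally expressed gene that starts from the same promoter region in the other direction, moved with Peg3. It had 323 and 297 in TG, 62.2 and 38.6 in NG, and 199 and 132 in IG. It fell by 1.71 in NG against IG (SE 0.26, limma adjusted p = 0.000989), a call lost without TG B, NG B or IG A with adjusted p of up to 0.0691, and rose by 2.63 in TG against NG (SE 0.26, limma adjusted p = 5.96e-05).

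The 8 neuron markers moved in the same direction as Peg3 between NG and the other groups, since 8 of 8 fell in NG against IG and 8 of 8 rose in TG against NG. In TG against IG 2 of them, Snap25 and Syt1, rose and 6 did not pass. Syt1, a synaptic vesicle gene, stood at 2470 and 2232 in TG, 556 and 442 in NG, and 1313 and 1263 in IG. Glial markers were also lower in NG. Of the 8 oligodendrocyte markers 7 fell in NG against IG, 8 rose in TG against NG and 1, Mog, rose in TG against IG. Of 6 astrocyte markers, which summed to 93168 and 91176 in TG, 72495 and 71561 in NG, and 115594 and 113182 in IG, 6 fell in NG against IG, 5 rose in TG against NG and 1, Aldh1l1, fell in TG against IG. None of these neural markers was at 0 in a group, and the part of neuron or glial RNA in the values of Peg3 and Meg3 was not tested.

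Cdkn1c encodes p57, a cyclin-dependent kinase inhibitor made from the maternal copy (chr7:143458339-143461050, minus strand). It had 3007 and 3594 normalised reads in TG, 2742 and 3405 in NG, and 3539 and 4249 in IG, and the shallower library was the higher one in each group. NG libraries lay below IG libraries and TG overlapped both. No comparison passed, with log2 fold changes of -0.34 (limma adjusted p = 0.0789) in NG against IG, 0.11 (limma adjusted p = 0.564) in TG against NG and -0.24 (limma adjusted p = 0.35) in TG against IG, each with SE 0.14. With a term for the deeper library of each group, Cdkn1c was called lower in NG against IG (limma adjusted p = 7.31e-06) and in TG against IG (limma adjusted p = 0.000872), and over all alternatives the adjusted p ranged up to 0.524 and 0.824. Plagl1, a paternally expressed zinc finger gene known in the mouse to regulate other members of the network, had 413 and 364 in TG, 441 and 375 in NG, and 530 and 421 in IG. NG overlapped both other groups, and none of its comparisons passed (log2 fold changes -0.22, -0.07 and -0.29 in NG against IG, TG against NG and TG against IG, with limma adjusted p = 0.282, 0.735 and 0.27). With that term Plagl1 was called lower in NG against IG (limma adjusted p = 0.0402) and in TG against IG (limma adjusted p = 0.0183), and over all alternatives the adjusted p ranged up to 0.845 and 0.711. Of the related genes Plag1 and Plagl2, Plagl2 rose by 0.56 in NG against IG (SE 0.13, limma adjusted p = 0.00733), lost without NG A, NG B, IG A or IG B with adjusted p of up to 0.0637, and fell by 0.90 in TG against NG (SE 0.13, limma adjusted p = 0.000442).

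**Figure D4:**
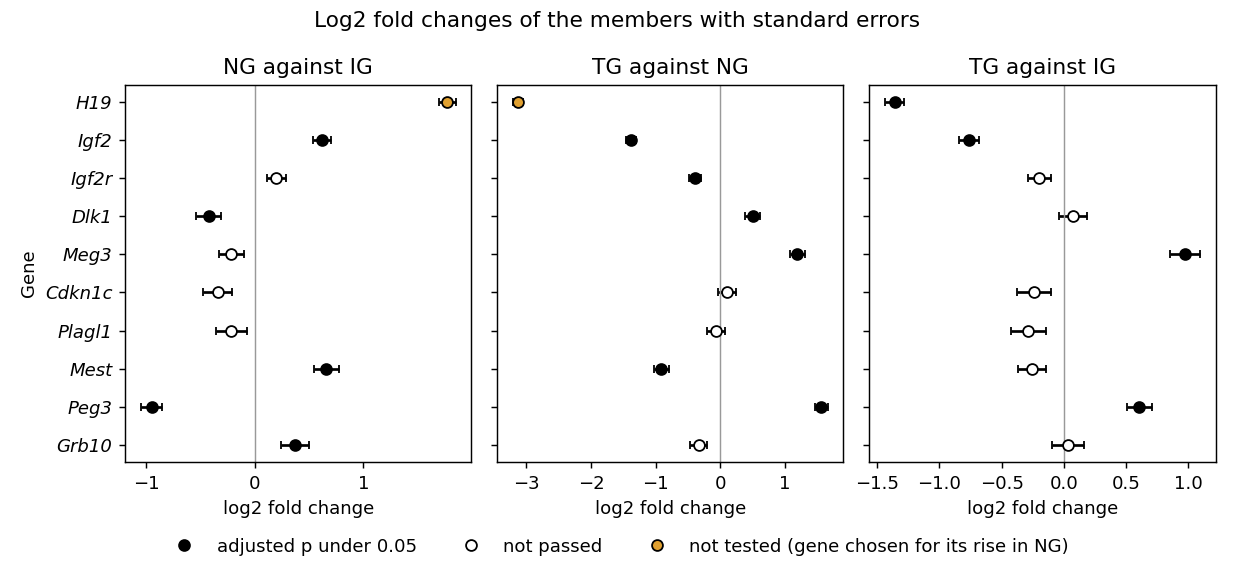
Log2 fold changes of the 10 genes with standard errors in the 3 comparisons. Filled points passed an adjusted p of 0.05, open points did not, and the H19 points not tested are marked. Meg3 and Peg3 were higher and H19 and Igf2 lower in TG against IG, and Peg3 rose by 1.56 in TG against NG. The IG values of H19 also entered its choice.

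Genes that neighbour the members in their imprinted clusters moved in both directions. Of 22 on the list 21 were tested. For this and the further gene lists, the shares called over all genes were 40.1% in NG against IG, 45.3% in TG against NG and 11.3% in TG against IG. No list was tested against these shares. In NG against IG 4 rose and 8 fell (median log2 fold change -0.22), in TG against NG 10 rose and 4 fell (median 0.34), and in TG against IG 2 rose and 1, the transporter gene Slc22a18, fell (median 0.08). The fall of Slc22a18 was by 1.58 (SE 0.35, limma adjusted p = 0.0252), and it was lost without any 1 of the 6 libraries, with adjusted p of up to 0.214. With each of the 6 libraries left out in turn, the 4 that rose and 8 that fell in NG against IG became 0 to 2, with 0 without IG A or IG B, and 5 to 7, with 5 without IG A, and the 4 that fell in TG against NG became 1 to 3, lowest without TG B. The 3 called in TG against IG became 1 without NG A or NG B and 0 without any other 1. Beside Cdkn1c, the noncoding RNA gene Kcnq1ot1 rose in NG against IG, at 173 and 261 in TG, 249 and 336 in NG, and 171 and 181 in IG, and Cd81, a tetraspanin gene, fell, at 10486 and 8911 in TG, 6056 and 5457 in NG, and 11393 and 10147 in IG.

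Of 31 further imprinted genes outside these clusters 28 were tested. In NG against IG 18 fell and 1 rose, with a median log2 fold change of -0.71, where that of all genes was 0.00. In TG against NG 21 rose and 2 fell with a median of 0.75, and in TG against IG 9 rose and 2 fell with a median of 0.19. With each of the 6 libraries left out in turn, the number that fell in NG against IG was 10 to 12, lowest without IG A, and the number that rose in TG against NG was 14 to 19, lowest without TG A or TG B. The number called in TG against IG was 3 without NG A, 2 without NG B and 0 without any other 1.
Kcnk9, a potassium channel gene of neurons, had 399 and 381 normalised reads in TG, 20.4 and 26.5 in NG, and 264 and 301 in IG, and fell by 3.54 in NG against IG (SE 0.17, limma adjusted p = 3.27e-06) and rose by 4.01 in TG against NG (SE 0.17, limma adjusted p = 9.63e-07). Rasgrf1, a neuronal Ras activator gene, had 3442 and 3427 in TG, 750 and 663 in NG, and 2617 and 2445 in IG, and fell by 1.84 in NG against IG (SE 0.09, limma adjusted p = 2.85e-06). The gene that rose was Dcn, of the matrix protein decorin, at 1939 and 1916 in TG, 8532 and 7852 in NG, and 4383 and 3979 in IG.
Dcn fell by 1.12 in TG against IG (SE 0.08, limma adjusted p = 0.000124), lost when any 1 TG or IG library was left out with adjusted p of up to 0.0719, and it is also on the fibroblast marker list. Slc38a4, an amino acid transporter gene, had 18.5 and 18.3 in TG, 142 and 88.0 in NG, and 126 and 84.7 in IG. It fell by 2.54 in TG against NG (SE 0.29, limma adjusted p = 0.000146) and by 2.43 in TG against IG (SE 0.29, limma adjusted p = 0.00143), and the second call was lost when any 1 TG or IG library was left out, with adjusted p of up to 0.124.

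**Figure D5:**
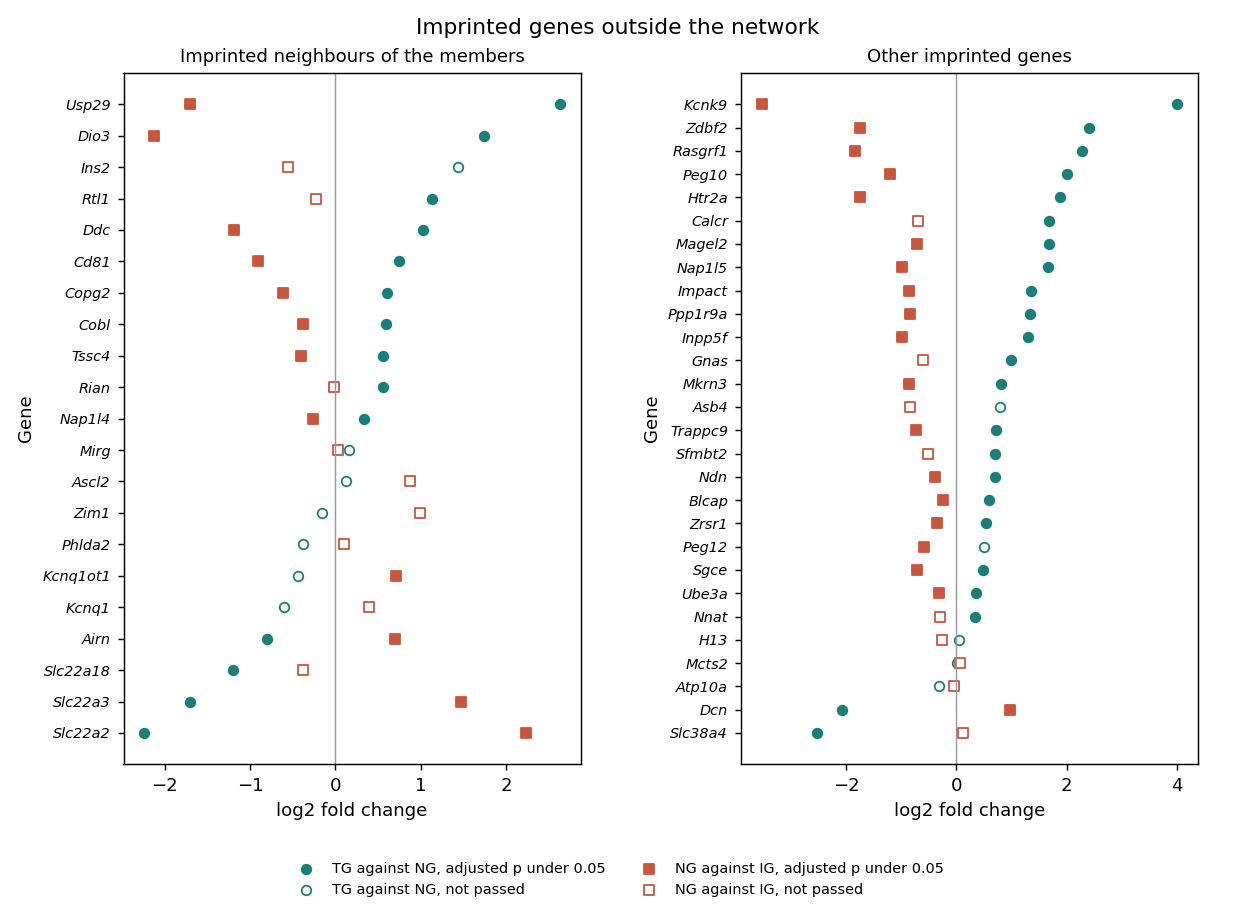
Log2 fold changes of the imprinted neighbours of the members and of the other imprinted genes, in NG against IG and TG against NG. Filled points passed an adjusted p of 0.05 and open points did not, and both comparisons share the NG libraries. In the second list 18 genes fell and 1, Dcn, rose in NG against IG.

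The IGF and insulin list holds the partner ligand, receptors, binding proteins and docking proteins of IGF2 signalling, and 15 of its 16 genes were tested. In NG against IG 4 rose and 6 fell, in TG against NG 6 rose and 6 fell, and in TG against IG 6 fell, all binding protein genes, and 9 did not pass (median log2 fold changes -0.15, -0.14 and -0.57). The 6 that fell in TG against IG became 3 without NG A or NG B and 0 without any other library, and the 6 that rose in TG against NG became 4 without TG A and 3 without TG B. Igf1, the ligand gene that acts on the same receptor, had 611 and 476 normalised reads in TG, 3210 and 2576 in NG, and 919 and 694 in IG. It rose by 1.85 in NG against IG (SE 0.17, limma adjusted p = 6.39e-05) and fell by 2.41 in TG against NG (SE 0.17, limma adjusted p = 9.29e-06). The receptor and docking protein genes Igf1r, Insr, Irs1 and Irs2 fell in NG against IG and rose in TG against NG. The ratio of Igf2 to Igf1 reads per kilobase was 18.7 and 22.4 in TG, 8.56 and 11.7 in NG, and 20.5 and 26.7 in IG, lowest in NG.

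The binding protein genes split. Igfbp7, whose protein binds IGFs weakly, had 888 and 962 normalised reads in TG, 4024 and 5682 in NG, and 1248 and 1615 in IG, and fell by 2.37 in TG against NG (SE 0.17, limma adjusted p = 9.81e-06). Igfbp3 ran the other way in NG, at 2847 and 2787 in TG, 1482 and 1496 in NG, and 4263 and 4572 in IG. Igfbp6, whose protein prefers IGF2, fell by 0.79 in TG against IG (SE 0.13, limma adjusted p = 0.00552), lost without any 1 of the 6 libraries with adjusted p of up to 0.197. Igfbp1, a binding protein gene made chiefly in liver, had 1 read over the TG libraries, 1 over the NG libraries and 935 over the IG libraries. Its level was higher in IG by 920-fold than in TG, with a 95% counting interval of 165 to 36383, and by 807-fold than in NG, with an interval of 144 to 31907, both for counting error only. Liver markers other than Afp were high in the same IG libraries, and their part was not tested.

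Among 10 Cip/Kip inhibitor and G1 cyclin genes, the partners and relatives of Cdkn1c, 6 rose and 1 fell in NG against IG, 8 fell in TG against NG, and 6 fell in TG against IG (median log2 fold changes 0.55, -0.61 and -0.35). The last count was 4 without NG A or NG B and 0 without any other library. Cdk2, the kinase gene of S phase entry, rose by 1.30 in NG against IG (SE 0.13, limma adjusted p = 0.000115) and fell by 1.97 in TG against NG (SE 0.13, limma adjusted p = 7.58e-06). Ccne2, a cyclin E gene, rose by 1.19 in NG against IG (SE 0.17, limma adjusted p = 0.000706). Cdkn1a, the gene of p21, had 1525 and 1557 in TG, 1206 and 1473 in NG, and 2489 and 2819 in IG, the one gene of the list that fell in NG. In TG against IG Cdkn1a fell by 0.78 (SE 0.11, limma adjusted p = 0.00286) and the cyclin D3 gene Ccnd3 by 0.73 (SE 0.10, limma adjusted p = 0.00217), both lost when any 1 TG or IG library was left out, with adjusted p of up to 0.152 and 0.114. The 5 cycling cell markers summed to 1367 and 1253 in TG, 7029 and 6081 in NG, and 2522 and 2216 in IG, and their part in these values was not tested.

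Of 7 genes for RNA-binding proteins of Igf2 and H19 and for Lin28 proteins and their targets, 1 rose and 2 fell in NG against IG, 3 rose and 1 fell in TG against NG, and all 7 did not pass in TG against IG. Over all genes 40.1%, 45.3% and 11.3% were called in these comparisons. With each library left out in turn, the 3 called in NG against IG became 1 or 2, lowest without TG B or NG A, and the 4 called in TG against NG became 1 or 2, lowest without TG A. Lin28a, a gene of the let-7 microRNA pathway, had 4.83 and 9.13 normalised reads in TG, 84.6 and 95.2 in NG, and 6.19 and 18.6 in IG. It rose by 2.94 in NG against IG (SE 0.51, limma adjusted p = 0.00201), lost without TG B, NG A or NG B with adjusted p of up to 0.0976, and fell by 3.56 in TG against NG (SE 0.51, limma adjusted p = 0.000518), lost without TG A or NG B with adjusted p of up to 0.0591. Lin28b, its relative, rose by 1.25 in TG against NG (SE 0.39, limma adjusted p = 0.0312), lost without any 1 of the 6 libraries with adjusted p of up to 0.254. Igf2bp2, a gene for a binding protein of Igf2 RNA, fell by 0.93 in NG against IG (SE 0.12, limma adjusted p = 0.000324).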

How the data were processed

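RNA-seq of 6 libraries, 2 each of TG, NG and IG, was analysed. The submitters' processing notes name Bowtie2 2.0.6, HTSeq 0.6.1 and mm10. The annotation, the strand setting and what made the p-values were not given in the sources used here. As deposited by the authors, there were 3 tables of 35275 genes, each with a signal per group, a log2 fold change and a p-value with its adjusted form, per the file headers. The deposited signal is the mean over 2 libraries of reads divided by size factors. Each group stands in 2 tables, so reads of both libraries were solved for per gene. Of the 35275 genes of each group 100% were whole within 0.001 reads. The libraries carry no sample numbers and are named A and B by depth.

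Size factors were medians of ratios over 6 libraries. Tests used limma 3.58.1 (R 4.3.3) with log2(normalised reads + 1), with group as the term, a prior variance with a trend, 3 residual and 5.23 prior degrees of freedom, and two-sided tests at an adjusted p of 0.05 over 24511 genes with a read in any library. A fold change on this scale understates that of low genes. The recovery and the fit were tested on simulated data. RPKM used the exon union of GENCODE M21, which gave symbols to 34490 of the 35275 gene IDs.

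The members, gene lists and markers were chosen with earlier results of these data known. From each further list, the text names the 2 genes with the largest change per comparison among those called with a mean of at least 20 normalised reads, and some of its other members, chosen after their values were seen. Genes like H19 and Meg3 are the 5 nearest with a mean of at least 50. The alternatives changed the pseudocount, filter, scaling, prior, weights, terms and libraries, and for the further lists they were added after seeing the data.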

Additional observations from a re-analysis of the deposited data

How the results depend on the processing

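The number of members called in NG against IG, 5 in the fit reported, was 3 with a prior variance without a trend, which lost Dlk1 and Grb10, and 9 with a term for the deeper library. That term gave 7 in TG against NG and 6 in TG against IG. It also raised the calls over all 24511 genes. They became 12027 in NG against IG, 13034 in TG against NG and 5862 in TG against IG, against 9818, 11101 and 2779. The count in NG against IG was 3 to 5 when each library was left out in turn. In TG against NG it was 6 and stayed at 4 to 6 with a library left out. In TG against IG the 4 members called became 2 without a trend, which lost Meg3 and Peg3, and 0 to 2 with a library left out, 0 without TG A, TG B, IG A or IG B and 2 without NG A or NG B. Over all genes the calls of that comparison then fell to between 0 and 1012, against 2779. Igf2, Mest and Peg3 in NG against IG, and Igf2, Mest, Peg3 and Meg3 in TG against NG, were called under every alternative run. The authors' deposited table calls 4 members in NG against IG, without Grb10, 6 in TG against NG and 4 in TG against IG.

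Values that were not called changed sign in 3 cases, and the cause was not tested. Cdkn1c in TG against NG was -0.0504 with scaling by total reads outside mitochondrially encoded genes and -0.0539 to 0.253 with a library left out. Plagl1 in TG against NG was -0.195 to 0.0453 with a library left out. Grb10 in TG against IG was -0.0338 with that scaling and -0.113 to 0.177 with a library left out. That scaling moved the median of all genes by -0.10 in TG against NG, and split the calls of TG against IG into 664 higher and 2056 lower, against 1020 and 1759. Of 480 values of single members under an alternative, 415 stayed the same, 44 lost a call, 12 gained one, 8 changed sign and 1 moved by more than the replicate spread. Staying the same meant keeping the direction and the side of the threshold. For H19 in the contrasts with NG, which were not tested, it meant keeping the direction and moving within the replicate spread.

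With the longest transcript as the length, mean RPKM over the 6 libraries was 126 for Igf2, 8.28 for Dlk1, 28.6 for Meg3, 4.27 for Plagl1, 5.57 for Mest, 32.4 for Peg3 and 13.4 for Grb10, against 104, 6.81, 23.0, 2.87, 3.76, 21.1 and 7.47 with the exon union. No paired analysis was possible because the libraries recovered from the tables carry no replicate numbers, and the term for the deeper library pairs libraries by depth, not by a number in the labels. With 2 libraries a group, a library left out leaves 1, which is then assumed to vary like the others.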

Other observations

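Genes that lay down or keep imprints, with some relatives, moved in both directions. Of 13 tested, 5 rose and 4 fell in NG against IG, 3 rose and 6 fell in TG against NG, and 1 rose and 1 fell in TG against IG. The shares called over all genes, for this list and the Notch list below, were 40.1%, 45.3% and 11.3%. With each of the 6 libraries left out in turn, the 9 called in NG against IG became 4 to 7, lowest without IG A, and the 9 called in TG against NG became 5 to 10, lowest without TG B. The 2 called in TG against IG became 1 without NG A or NG B and 0 without any other 1. Uhrf1, whose protein brings the maintenance methyltransferase to replicated DNA, had 184 and 202 normalised reads in TG, 989 and 1004 in NG, and 336 and 339 in IG. It rose by 1.56 in NG against IG (SE 0.10, limma adjusted p = 9.78e-06) and fell by 2.36 in TG against NG (SE 0.10, limma adjusted p = 8.36e-07). The de novo methyltransferase gene Dnmt3a ran the other way, at 4280 and 4371 in TG, 1776 and 1870 in NG, and 3594 and 3593 in IG. Ctcfl, a germ line relative of Ctcf, rose by 1.44 in NG against IG (SE 0.33, limma adjusted p = 0.009), lost without NG B or IG A with adjusted p of up to 0.0778, and Dnmt3b fell by 1.502 in TG against NG (SE 0.28, limma adjusted p = 0.00242), lost without TG B with adjusted p of 0.0556.

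The list of 15 Notch pathway genes holds the receptors and ligands beside which Dlk1 acts, and genes that act downstream of them, such as Hes1. Of these 15 genes, 5 rose and 4 fell in NG against IG, and 4 rose and 6 fell in TG against NG. In TG against IG 3 fell and 12 did not pass. With each of the 6 libraries left out in turn, the 9 called in NG against IG became 3 or 4, lowest without IG A or IG B, and the 10 called in TG against NG became 4 to 7, lowest without TG B. The 3 called in TG against IG were Notch2 (log2 fold change -0.61, limma adjusted p = 0.00414), Jag1 (-0.63, limma adjusted p = 0.0333) and Hes1 (-0.55, limma adjusted p = 0.0306). Without any 1 of the 6 libraries no gene of the list passed there, with adjusted p of up to 0.112 for Notch2 and 0.324 for Jag1. Hes1, a target gene of Notch, had 140 and 130 normalised reads in TG, 365 and 417 in NG, and 189 and 207 in IG, and fell by 1.53 in TG against NG (SE 0.13, limma adjusted p = 2.43e-05). Dlk2, the closest relative of Dlk1, fell by 1.06 in NG against IG (SE 0.21, limma adjusted p = 0.00381), lost without any 1 library other than IG A with adjusted p of up to 0.13. The ligand gene Dll3 fell by 2.17 there (SE 0.43, limma adjusted p = 0.00384) and rose by 1.92 in TG against NG (SE 0.43, limma adjusted p = 0.00594), both lost when any 1 TG or IG library was left out, with adjusted p of up to 0.158 and 0.168.

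In 6 of the 10 members the deeper library stood on the same side of the shallower one in all 3 groups. Plagl1, Peg3 and Grb10 were higher in the deeper library, and Dlk1, Meg3 and Cdkn1c in the shallower one. Of 13720 genes with a mean of at least 50 normalised reads, 56.9% kept one side in all 3 groups.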
